A study of Mus musculus with 13 samples.

Results

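The genes described here are the Wnt ligands Wnt5a and Wnt5b and 8 genes that Wnt signalling switches on or that damp it or act in the nucleus at its end: Axin2, Apcdd1, Nkd1, Nkd2, Dact1, Dact2, Lef1 and Tcf7. They were taken by name, without a threshold on any value, and are 10 of the 35498 genes to which reads were assigned. Earlier results of these data were known when they were chosen, so their counts beside all genes are description only. All 10 were among the 13044 genes kept by the filter on low counts. The data are 13 poly(A) RNA libraries of cultured cell lines described as mouse melanoma. They were made to study soluble adenylyl cyclase (sAC), a source of the second messenger cyclic AMP, placed in a chosen compartment of the cell. Doxycycline, an antibiotic used to turn on inducible constructs, was the agent. The cytoplasmic and mitochondrial arms that the series names were not analysed here.

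The NLS lines carry the compartment label nuclear under doxycycline. They have line numbers 16, 6 and 7 and 3 libraries each at t0 (no doxycycline), t6 (6 h) and t48 (48 h). The LacZ lines, named for a bacterial reporter gene that commonly serves as a control, have line numbers 10 and 12 and 2 libraries each at t48 and t0. The LacZ t48 libraries carry the compartment label nuclear as well, against their titles, and are treated as LacZ by title. The labels say nothing on the promoter that drives the constructs, on whether a line number is a clone, or on separate cultures. P-values therefore measure the spread between these libraries, which may in part be technical.

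Wnt proteins are secreted and bind Frizzled receptors with co-receptors. In the canonical branch this stabilises beta-catenin, which enters the nucleus and joins the DNA-binding factors of the TCF/LEF family, among them those encoded by Tcf7 and Lef1. Several target genes feed back on the pathway: Axin2 encodes a scaffold of the complex that degrades beta-catenin, the Nkd proteins and the Dact proteins bind Dishevelled, the adaptor below the receptors, and Apcdd1 encodes a membrane inhibitor of Wnt. Wnt5a and Wnt5b are mostly studied as ligands of the beta-catenin-independent branch. Wnt5a is also known in melanoma for its link with invasive cells.

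Depth was 18512887 to 22584628 estimated reads per library. Adcy10, the mouse gene of sAC, checks the construct and went against the time labels. It had 365.6, 371.2 and 339.2 CPM (read counts scaled to the library size, with TMM factors) at t0, t6 and t48 in line 6, 200.4, 181.2 and 199.1 CPM in line 7, and 0.671, 1.19 and 1.22 CPM in line 16. The LacZ libraries had at most 0.167 CPM. Adcy10 reads thus separated the line numbers and not the times, and every time below is that of the libraries labelled so. Melanocyte markers were scarce: the summed level of 10 genes was 4.28 to 6.48 CPM, and 2 of them reached 1 CPM in any library. Mitf led at 2.76 to 5.37 CPM, Tyrp1 had no reads, and Sox10, Mlana and Kit had at most 0.0512 CPM. Of 8 fibroblast and mesenchyme markers 6 reached 1 CPM, led by Col1a1 at 2560 to 6920 CPM. Dcn was at 3.13 to 18.5 CPM, and Lum and Thy1 had at most 0.0536 and 0.0942 CPM. The summed leukocyte, keratinocyte and endothelial markers stayed between 2.2 and 14.6 CPM. Low melanocyte markers and high collagen genes thus stand beside the description as melanoma, which was not tested.

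Over the 9 NLS libraries every member except Tcf7 followed the time label more than the line number. Of the sum of squares of log2(CPM + 0.5), the time label held 99.0% for Dact1, 98.6% for Nkd1, 95.3% for Lef1, 93.1% for Nkd2, 89.0% for Apcdd1 and 86.4% for Dact2. It held 72.3% for Axin2 and 72.2% for Wnt5b. For Wnt5a the share was 49.2%, beside 46.4% for the line number. Tcf7 differed mostly by line, with 82.0% for the line number and 16.5% for the time label. The median over 13040 tested genes with reads in these libraries was 56.7% for the time label and 19.4% for the line number, so that 8 of the 10 members lay above the median for time.

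**Figure D1:**
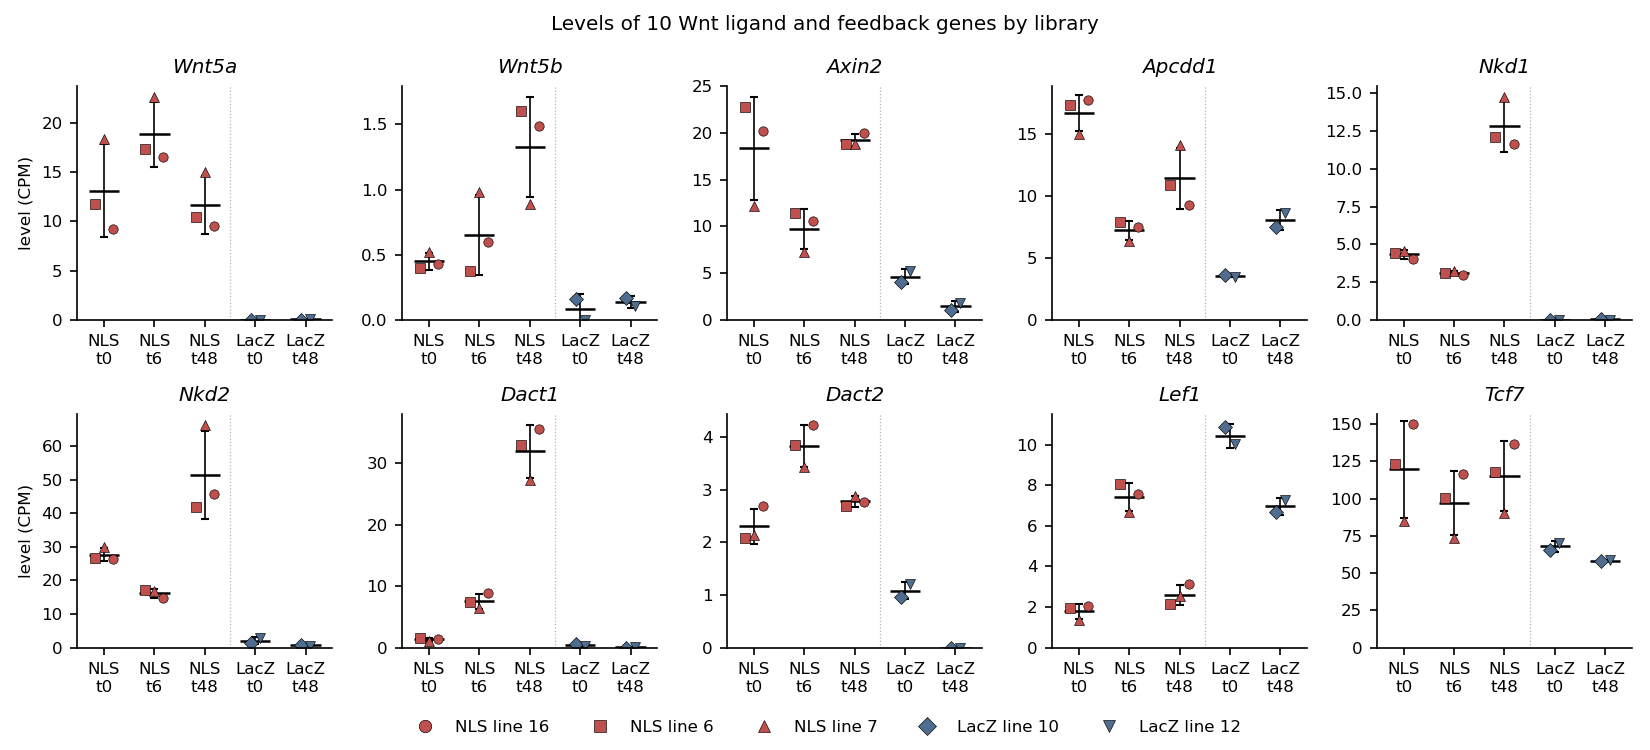
Level of each gene in CPM on the y axis in the 13 libraries, by group on the x axis; each symbol is a library with its line number, horizontal bars are group means and error bars the SD (n = 3 for NLS groups, n = 2 for LacZ groups). Dact1 stands at 27.2 to 35.6 CPM in NLS t48 and below 1.6 CPM in NLS t0, and Lef1 is the gene whose LacZ libraries at t0 lie above all NLS libraries.

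**Figure D2:**
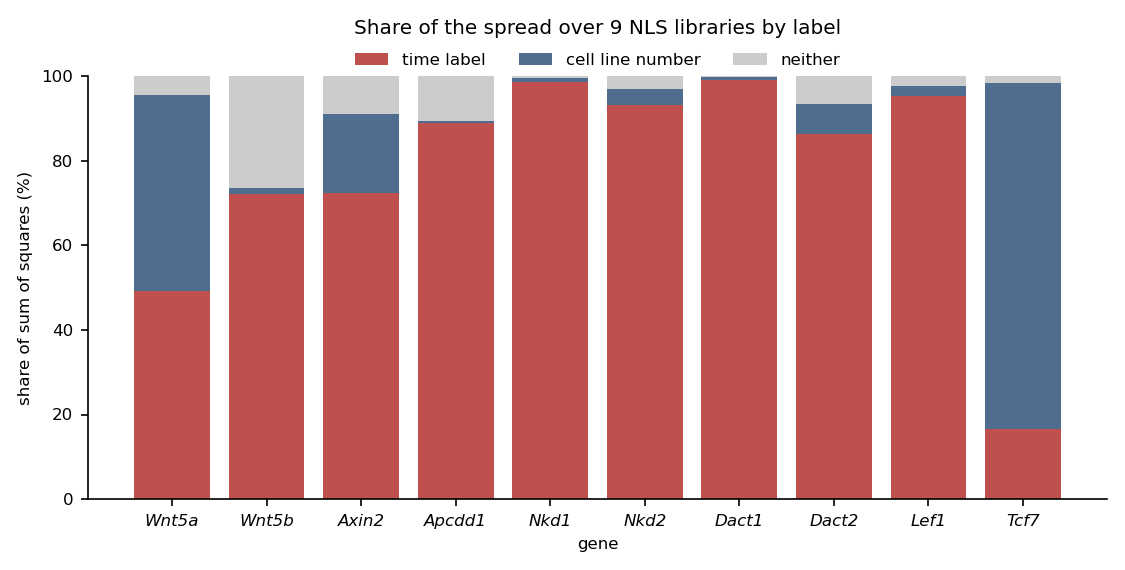
Share in percent (y axis) of the sum of squares of log2(CPM + 0.5) over the 9 NLS libraries that the time label, the cell line number and neither account for, for each gene (x axis). The time label holds the largest part for every gene except Tcf7, where the line number holds 82.0%.

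Dact1 showed the largest change with the time labels. Its protein binds Dishevelled and is known for damping Wnt signalling. The gene lies on GRCm38 chromosome 12 (71309884 to 71320107, plus strand). It had 1.39, 1.59 and 1.09 CPM in lines 16, 6 and 7 at t0, 8.82, 7.35 and 6.43 CPM at t6 and 35.6, 33.1 and 27.2 CPM at t48. Every t48 library stood above every t6 library, and every t6 library above every t0 library. The log2 fold change was 2.47 (SE 0.22, edgeR adjusted p = 7.83e-06) for t6 over t0, 4.55 (SE 0.22, edgeR adjusted p = 1.23e-08) for t48 over t0 and 2.08 (SE 0.18, edgeR adjusted p = 2.1e-06) for t48 over t6. Within a line the t48 level was 25.6, 20.8 and 25 times the t0 level in lines 16, 6 and 7. The LacZ lines 10 and 12 had 0 and 2 reads at t48, against 11 and 4 reads at t0. In the LacZ lines this is a t48 to t0 ratio of 0.137 with a 95% counting interval of 0.0152 to 0.591, and the gene was not called there (edgeR adjusted p = 0.0512). With the cell line number as a replicate block it was called (edgeR adjusted p = 0.00896), as it was without line 12 (0.0419), without the t0 library of line 12 (0.0319) and in DESeq2 (0.0491). In bulk RNA, fewer cells that express a gene and less RNA per cell cannot be told apart.

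The RefSeq promoters of Dact1, Nkd2 and Axin2 are shown because these inhibitors differ in how they moved with the time labels. They are the 250 bases before and 50 after the RefSeq start, on the gene's strand, build GRCm38.p6, at chr12:71309634-71309933 (plus), chr13:73847582-73847881 (minus) and chr11:108920099-108920398 (plus). Capitals mark the letters TGACG or its reverse complement CGTCA, the short cAMP response element, and CTTTGA or TCAAAG, a TCF/LEF core.
Dact1: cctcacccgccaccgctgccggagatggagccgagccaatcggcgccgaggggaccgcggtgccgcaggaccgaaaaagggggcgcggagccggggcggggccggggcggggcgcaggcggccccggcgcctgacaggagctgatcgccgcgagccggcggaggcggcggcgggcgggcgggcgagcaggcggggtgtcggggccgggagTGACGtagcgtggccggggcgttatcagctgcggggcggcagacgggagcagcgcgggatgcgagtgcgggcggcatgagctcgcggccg
Nkd2: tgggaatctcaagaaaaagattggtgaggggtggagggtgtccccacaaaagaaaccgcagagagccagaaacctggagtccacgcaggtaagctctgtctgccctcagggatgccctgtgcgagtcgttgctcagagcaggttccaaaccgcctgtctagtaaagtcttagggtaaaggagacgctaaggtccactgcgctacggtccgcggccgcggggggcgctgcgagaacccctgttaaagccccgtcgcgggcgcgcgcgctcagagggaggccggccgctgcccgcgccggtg
Axin2: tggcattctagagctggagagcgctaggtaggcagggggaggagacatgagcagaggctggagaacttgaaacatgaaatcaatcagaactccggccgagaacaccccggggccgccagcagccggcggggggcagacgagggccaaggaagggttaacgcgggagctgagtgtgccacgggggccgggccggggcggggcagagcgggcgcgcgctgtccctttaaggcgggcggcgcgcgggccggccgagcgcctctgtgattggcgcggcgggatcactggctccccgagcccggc
Dact1 holds TGACG once, starting at position -40 from the RefSeq start, and neither Nkd2 nor Axin2 holds any of the motifs in this window. Of 32851 mouse promoters of this length, 20.8% hold TGACG and 16.0% hold CTTTGA on either strand. The full palindrome TGACGTCA, which contains TGACG on both strands, occurs in 1.79% of them and in no window of the members. Promoters were matched for 8 of the 10 members, with 14 windows, since some have several starts. CTTTGA occurred in 1 of 3 windows of Wnt5b and, as 2 copies of TCAAAG, in 1 of 4 windows of Lef1. The RefSeq start of that Lef1 window lies 42438 bases from the nearest start of a GENCODE Lef1 transcript. These are letter matches and were not tested for binding.

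The naked cuticle genes Nkd1 and Nkd2, whose proteins bind Dishevelled and limit Wnt signalling, were lower at t6 and higher at t48 than at t0. Nkd2 (chromosome 13, 73818534 to 73847631, minus strand) had 26.4, 26.8 and 29.95 CPM in lines 16, 6 and 7 at t0, 14.7, 17.2 and 16.7 CPM at t6 and 45.6, 41.9 and 66.3 CPM at t48. The 3 time labels did not overlap. Nkd2 thus had a log2 fold change of -0.78 (SE 0.19, edgeR adjusted p = 0.0128) for t6 over t0, 0.89 (SE 0.18, edgeR adjusted p = 0.00368) for t48 over t0 and 1.67 (SE 0.19, edgeR adjusted p = 5.23e-05) for t48 over t6. The t6 call was lost without line 16 (edgeR adjusted p = 0.0982), without line 6 (edgeR adjusted p = 0.0668) and without the t6 library of line 16 (edgeR adjusted p = 0.052). With the cell line number as a replicate block the t6 call held (edgeR adjusted p = 0.00531).

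Nkd1 (chromosome 8, 88521354 to 88594884, plus strand) followed the same course at lower levels. It had 4.02, 4.43 and 4.58 CPM in lines 16, 6 and 7 at t0, 2.94, 3.09 and 3.21 CPM at t6 and 11.6, 12.1 and 14.75 CPM at t48. Again the 3 time labels did not overlap, and the spread within each was small. Nkd1 gave a log2 fold change of 1.56 (SE 0.15, edgeR adjusted p = 1.17e-05) for t48 over t0 and 2.06 (SE 0.16, edgeR adjusted p = 1.34e-06) for t48 over t6. For t6 over t0 it was -0.50 (SE 0.16, edgeR adjusted p = 0.047). This call was lost in 9 of 9 refits without a library or a line (edgeR adjusted p 0.06 to 0.263, highest without line 6). DESeq2 lost it too (adjusted p = 0.0643), as did no filter on low counts (0.0642) and only the compared libraries in the fit (0.0516). With the cell line number as a replicate block the call held (edgeR adjusted p = 0.0128).

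Axin2, a feedback gene that is widely read as a marker of beta-catenin activity, was lower at t6 than at either t0 or t48. The gene lies on chromosome 11 (108920349 to 108950783, plus strand). It had 20.2, 22.75 and 12.2 CPM in lines 16, 6 and 7 at t0, 10.6, 11.4 and 7.31 CPM at t6 and 19.97, 18.8 and 18.8 CPM at t48. Line 7 was lowest at t0 and at t6, and the t48 libraries lay within the range of the t0 libraries. The log2 fold change was -0.91 (SE 0.23, edgeR adjusted p = 0.0159) for t6 over t0 and 0.97 (SE 0.23, edgeR adjusted p = 0.00794) for t48 over t6. For t48 over t0 it was 0.06 (SE 0.22, edgeR adjusted p = 0.865). Within the lines Axin2 at t6 was 0.524, 0.5 and 0.6 times its t0 level in lines 16, 6 and 7. The t6 over t0 call was lost without line 16 (edgeR adjusted p = 0.125), line 6 (0.104), the t0 library of line 16 (0.051) or line 6 (0.0599), and the t6 library of line 7 (0.0542). It was also lost with no filter on low counts (0.0599) and with only the compared libraries in the fit (0.06). The t48 over t6 call was lost without line 16 (edgeR adjusted p = 0.0672). Both calls held with the cell line number as a replicate block (edgeR adjusted p = 0.000507 for t6 over t0 and 0.000148 for t48 over t6).

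Apcdd1, on chromosome 18, was lower at both later time labels. It had 17.7, 17.35 and 15.02 CPM in lines 16, 6 and 7 at t0, 7.48, 7.87 and 6.38 CPM at t6 and 9.29, 10.9 and 14.1 CPM at t48. The t0 libraries were the highest, with no overlap, and line 7 came closest to t0 at t48. Apcdd1 gave a log2 fold change of -1.20 (SE 0.14, edgeR adjusted p = 7.58e-05) for t6 over t0, -0.54 (SE 0.14, edgeR adjusted p = 0.0108) for t48 over t0 and 0.66 (SE 0.15, edgeR adjusted p = 0.00389) for t48 over t6. The t48 over t0 call was lost without line 16 (edgeR adjusted p = 0.131) and without line 6 (edgeR adjusted p = 0.138). It held with the replicate block (edgeR adjusted p = 0.0066).

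Lef1 and Dact2 were highest at t6 within the NLS lines. Lef1, the lymphoid enhancer-binding factor (chromosome 3, 131110471 to 131224356, plus strand), had 2.06, 1.95 and 1.35 CPM in lines 16, 6 and 7 at t0, 7.58, 8.05 and 6.69 CPM at t6 and 3.13, 2.17 and 2.53 CPM at t48. The t6 libraries stood apart from all other NLS libraries. Lef1 gave a log2 fold change of 2.06 (SE 0.17, edgeR adjusted p = 3.53e-06) for t6 over t0 and -1.51 (SE 0.17, edgeR adjusted p = 1.92e-05) for t48 over t6. For t48 over t0 it was 0.54 (SE 0.19, edgeR adjusted p = 0.0461). That last call was lost in 7 of 9 refits, those without line 16, 6 or 7, without the t48 library of line 16 or 7, or without the t0 library of line 6 or 7 (edgeR adjusted p 0.0667 to 0.203, highest without line 7). It was also lost in DESeq2 (adjusted p = 0.0677), with no filter on low counts (0.0656) and with only the compared libraries in the fit (0.138). With the replicate block it held (edgeR adjusted p = 0.0203).

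Dact2, a relative of Dact1 (chromosome 17, 14195052 to 14204304, minus strand), moved far less than Dact1. It had 2.68, 2.08 and 2.14 CPM in lines 16, 6 and 7 at t0, 4.22, 3.84 and 3.42 CPM at t6 and 2.76, 2.68 and 2.89 CPM at t48. The t6 libraries were again the highest. Dact2 gave a log2 fold change of 0.74 (SE 0.18, edgeR adjusted p = 0.013) for t6 over t0, 0.27 (SE 0.19, edgeR adjusted p = 0.313) for t48 over t0 and -0.46 (SE 0.18, edgeR adjusted p = 0.0754) for t48 over t6. The t6 over t0 call was lost without line 6 (edgeR adjusted p = 0.164), line 16 (0.0762) or line 7 (0.0525), without the t6 library of line 16 (0.055) and without the t0 library of line 6 (0.0574). It held with the replicate block (edgeR adjusted p = 0.00756).

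Both ligands were present in the NLS lines, and they differed in course. Wnt5a (chromosome 14, 28504750 to 28527448, plus strand) had 9.20, 11.8 and 18.4 CPM in lines 16, 6 and 7 at t0, 16.5, 17.4 and 22.65 CPM at t6 and 9.56, 10.45 and 15.02 CPM at t48. Within each line the t6 library was the highest, at 1.80, 1.48 and 1.23 times the t0 level in lines 16, 6 and 7, and line 7 was the highest line at each time. The fit without the line gave a log2 fold change of 0.52 (SE 0.26, edgeR adjusted p = 0.203) for t6 over t0 and -0.69 (SE 0.27, edgeR adjusted p = 0.0825) for t48 over t6. With the cell line number as a replicate block both were called (edgeR adjusted p = 0.000435 for t6 over t0 and 3.29e-05 for t48 over t6). Without line 7 both were called too (edgeR adjusted p = 0.0162 and 0.00764), as was t6 over t0 without the t0 library of line 7 (0.0232) and t48 over t6 without its t48 library (0.0406). In DESeq2 t48 over t6 was called (adjusted p = 0.0318) and t6 over t0 was not (adjusted p = 0.146). With only the compared libraries in the edgeR fit, t48 over t6 was called and t6 over t0 was not.

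Wnt5b (chromosome 6, 119432531 to 119544347, minus strand) was scarce, with 8 to 34 reads in the NLS libraries. It had 0.431, 0.398 and 0.524 CPM in lines 16, 6 and 7 at t0, 0.597, 0.3745 and 0.985 CPM at t6 and 1.49, 1.60 and 0.889 CPM at t48. The t48 libraries lay above the t0 libraries, and the t6 libraries overlapped with both. The log2 fold change was 1.54 (SE 0.46, edgeR adjusted p = 0.0237) for t48 over t0. This call was lost in 6 of 9 refits, those without line 6 or 16 or any t0 or t48 library of these lines (edgeR adjusted p 0.0618 to 0.19, highest without line 6). With the replicate block the call held (edgeR adjusted p = 0.00964). For t6 over t0 the log2 fold change was 0.51 (SE 0.48, edgeR adjusted p = 0.51). For t48 over t6 it was 1.02 (SE 0.44, edgeR adjusted p = 0.102), and this was called without line 7 (edgeR adjusted p = 0.0291).

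Tcf7, which encodes the T cell factor TCF1 (chromosome 11, 52252371 to 52283014, minus strand), was the member with the highest level and followed the line number. It had 150.2, 123.2 and 85.2 CPM in lines 16, 6 and 7 at t0, 116.5, 100.5 and 73.6 CPM at t6 and 136.8, 118.0 and 90.4 CPM at t48. The order of the lines was the same at every time label. The log2 fold change was -0.30 (SE 0.23, edgeR adjusted p = 0.414) for t6 over t0, -0.06 (SE 0.23, edgeR adjusted p = 0.892) for t48 over t0 and 0.25 (SE 0.23, edgeR adjusted p = 0.48) for t48 over t6. With the replicate block the t6 libraries were called lower than t0 (edgeR adjusted p = 9.95e-05) and the t48 libraries higher than t6 (edgeR adjusted p = 0.000276). Within a line the t6 level was 0.776, 0.816 and 0.864 times the t0 level in lines 16, 6 and 7.

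In counts, 3 members were higher and 4 lower at t6 than at t0 in the NLS lines, where 20.8% of all tested genes were called, 11.6% higher and 9.23% lower. At t48 against t0, 5 were higher and 1 lower, beside 26.1% of all genes called, 14.8% higher and 11.3% lower. At t48 against t6, 5 were higher and 1 lower, beside 28.2% of all genes called, 14.6% higher and 13.6% lower. These comparisons share libraries with each other, and the members were chosen with earlier results of these data known. Without line 16 or without line 6 the count dropped to 3 members at t6 against t0 and to 3 at t48 against t0. Without the t6 library of line 16 or the t0 library of line 6, the t6 over t0 count was 4. Neither these counts nor the refits used the line number. With it as a replicate block, 9 members were called at t6 against t0, 6 at t48 against t0 and 8 at t48 against t6. No share over all genes is given for that fit. The median log2 fold change of the members was 0.11 for t6 over t0, 0.41 for t48 over t0 and 0.82 for t48 over t6, against 0.00, -0.01 and 0.00 for all tested genes. The summed level of 8 fibroblast and mesenchyme markers also moved with these labels, at 10000 to 12200 CPM at t0, 7790 to 9440 CPM at t6 and 16000 to 17100 CPM at t48. This sum is mostly Col1a1, Col1a2 and Col3a1, each at 1630 CPM or more, while no other gene of the list passed 256 CPM. The part of this sum in the results was not tested.

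**Figure D3:**
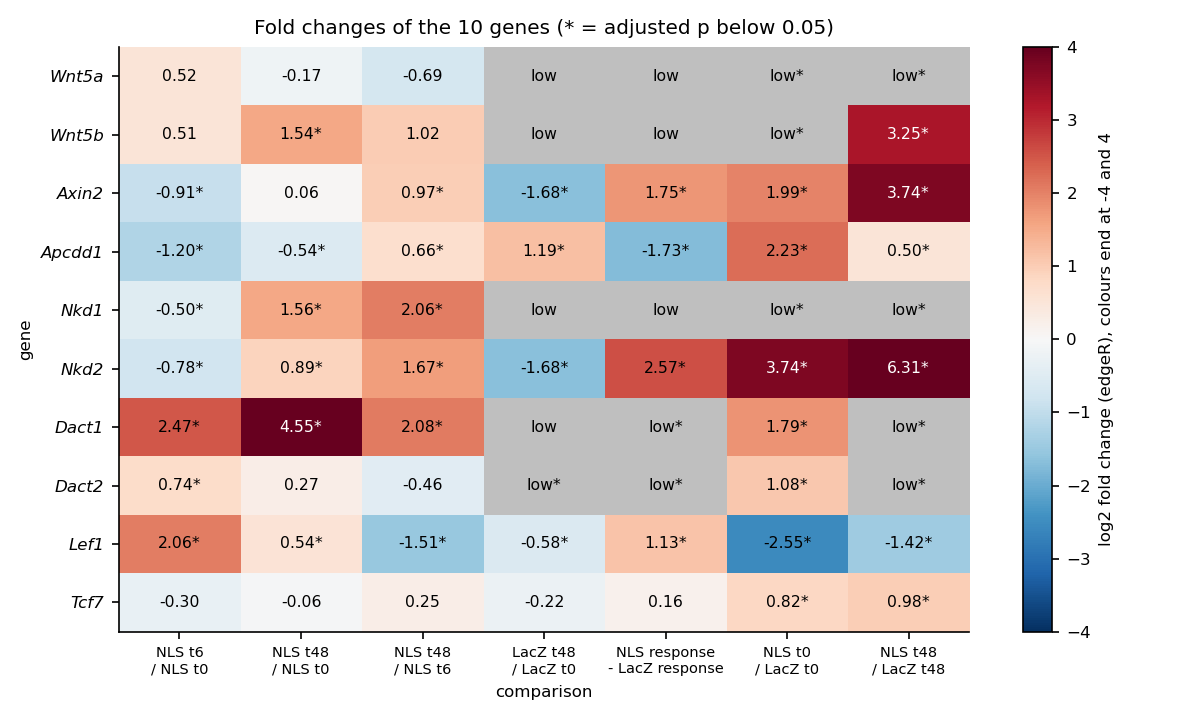
Log2 fold change (colour and number) of each gene (rows) in 7 comparisons (columns), first group over second; an asterisk marks edgeR adjusted p below 0.05, and grey cells marked low have 3 or fewer reads in a group that the comparison uses. Dact1 has the largest value among NLS times, 4.55 for t48 over t0, and Lef1 is the gene below 0 in both NLS over LacZ columns.

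The LacZ lines give the same comparison of t48 with t0 in lines of the other construct. Of the members, 1 was higher and 4 lower at t48 than at t0, beside 18.5% of all tested genes called, 8.68% higher and 9.87% lower. Axin2 had 1.0 and 1.84 CPM in lines 10 and 12 at t48, against 4.02 and 5.19 CPM at t0 (log2 fold change -1.68, SE 0.40, edgeR adjusted p = 0.0143). Nkd2 had 0.834 and 0.461 CPM at t48, against 1.34 and 2.75 CPM at t0 (log2 fold change -1.68, SE 0.49, edgeR adjusted p = 0.0348). Apcdd1, which was lower at t48 in the NLS lines, was higher here. It had 7.503 and 8.65 CPM at t48, against 3.59 and 3.50 CPM at t0 (log2 fold change 1.19, SE 0.20, edgeR adjusted p = 0.00132).

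Lef1 in the LacZ lines had 6.67 and 7.27 CPM at t48, against 10.9 and 10.0 CPM at t0 (log2 fold change -0.58, SE 0.19, edgeR adjusted p = 0.0449). Dact2 had no reads at t48, against 18 and 24 reads at t0, at least 6.76-fold lower against a floor of 3 counts per library. With 2 lines these calls were fragile, except that of Dact2, which held in 6 of 6 refits. Apcdd1 lost its call without line 12 (edgeR adjusted p = 0.0737), and Lef1 lost its call in every refit (edgeR adjusted p 0.11 to 0.43, highest without line 10). Axin2 lost it without line 10 (0.173), line 12 (0.113), the t48 library of line 10 (0.12) or the t0 library of line 12 (0.0902). Nkd2 lost it without line 12 (0.581), either of its libraries (0.265 at t0 and 0.206 at t48) or the t48 library of line 10 (0.0767). Its log2 fold change was -0.67 without line 12. With no filter on low counts both calls were lost (edgeR adjusted p = 0.0531 for Axin2 and 0.107 for Nkd2). The count of called members was 2 without line 12 or the t48 library of line 10, and 3 without line 10 or either library of line 12. Tcf7 had 58.0 and 58.6 CPM at t48, against 65.3 and 70.5 CPM at t0, and was called with the replicate block (edgeR adjusted p = 0.0107) and not without it (edgeR adjusted p = 0.66).

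The change between t48 and t0 differed between the NLS and the LacZ lines for 6 members, beside 23.3% of all tested genes. It was more positive in the NLS lines for 5 of them and less for 1, against 12.1% and 11.2% of all genes. These differences use the same libraries as the time comparisons above. Axin2 changed by a log2 of 0.06 in the NLS lines and -1.68 in the LacZ lines, a difference of 1.75 (SE 0.46, edgeR adjusted p = 0.0183). Nkd2 changed by 0.89 in the NLS lines and -1.68 in the LacZ lines, a difference of 2.57 (SE 0.52, edgeR adjusted p = 0.00452). Lef1 changed by 0.54 in the NLS lines and -0.58 in the LacZ lines, a difference of 1.13 (SE 0.26, edgeR adjusted p = 0.00787). Apcdd1 went the other way, with -0.54 in the NLS lines and 1.19 in the LacZ lines, a difference of -1.73 (SE 0.24, edgeR adjusted p = 0.000243). Dact1 and Dact2 were called too (edgeR adjusted p = 8.97e-05 and 1.67e-05), but the size of their difference rests on 2 and 0 reads in LacZ t48. Axin2 lost the call in 5 of 15 refits, those without line 10, 12 or 16, the LacZ t48 library of line 10 or the LacZ t0 library of line 12 (edgeR adjusted p 0.0631 to 0.137), and with no filter on low counts (0.0679). Nkd2 lost it without line 12 (0.148), where the difference was 1.56, and Lef1 without line 10 (0.104). Over the refits the Nkd2 difference ran from 1.56 to 3.44.

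The widest gap was between the constructs. At t0, without doxycycline, 9 members were higher and 1 lower in NLS than in LacZ lines, beside 43.5% of all tested genes called, 21.1% higher and 22.4% lower. Wnt5a had 192 to 421 reads in the NLS t0 libraries and none in the LacZ t0 libraries, which is at least 84.4-fold higher against the floor of 3 counts per library. Nkd1 had 4.34 ± 0.288 CPM in NLS t0 (SD, n = 3) and no reads in LacZ t0, at least 28.0-fold higher. The other gaps were smaller. Nkd2 was at 27.7 ± 1.95 CPM in NLS t0 (SD, n = 3) and 2.04 ± 0.995 CPM in LacZ t0 (SD, n = 2), a log2 fold change of 3.74 (SE 0.28, edgeR adjusted p = 8.84e-07). Apcdd1 was at 16.7 ± 1.47 CPM in NLS t0 and 3.54 ± 0.0682 CPM in LacZ t0, and Axin2 at 18.4 ± 5.51 CPM in NLS t0 and 4.61 ± 0.829 CPM in LacZ t0 (edgeR adjusted p = 3.9e-07 and 0.000178).

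Lef1 was the member that was lower in NLS lines, with 1.79 ± 0.38 CPM in NLS t0 and 10.5 ± 0.598 CPM in LacZ t0 (log2 fold change -2.55, SE 0.18, edgeR adjusted p = 1.27e-07). The other factor of its family, Tcf7, was at 120.0 ± 32.7 CPM in NLS t0 and 67.9 ± 3.69 CPM in LacZ t0 (log2 fold change 0.82, SE 0.27, edgeR adjusted p = 0.0331). The 2 factors thus lay in opposite directions between the constructs. The Tcf7 call was lost in 8 of 10 refits, those without line 6, 10, 12 or 16 or the t0 library of any of them (edgeR adjusted p 0.0514 to 0.182, highest without line 10), with no filter on low counts (0.0762) and with only the compared libraries in the fit (0.0585). Dact1 at 1.36 ± 0.252 CPM in NLS t0 and 0.395 ± 0.276 CPM in LacZ t0 lost its call without the LacZ t0 library of line 12 (edgeR adjusted p = 0.0627). Dact2 was at 2.30 ± 0.332 CPM in NLS t0 and 1.08 ± 0.165 CPM in LacZ t0 (edgeR adjusted p = 0.00234). Wnt5b had 30 reads in NLS t0 and 3 in LacZ t0, a ratio of 5.83 with a 95% counting interval of 1.81 to 29.8. Its call was lost without line 12 (edgeR adjusted p = 0.188), the LacZ t0 library of line 12 (0.18) or line 16 (0.0566).

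At t48 the same count held, with 9 members higher and 1 lower in NLS than in LacZ lines, beside 45.1% of all tested genes called, 23.0% higher and 22.2% lower. Dact1 had 1987 reads in NLS t48 and 2 in LacZ t48, a ratio of 596 with a 95% counting interval of 165 to 4920. Nkd1 had 808 reads in NLS t48 and 1 in LacZ t48 (ratio 485, interval 86.7 to 19200), and Wnt5a 740 in NLS t48 and 2 in LacZ t48 (ratio 222, interval 61.2 to 1840). Dact2 had 174 reads in NLS t48 and none in LacZ t48, at least 17.3-fold higher. Nkd2 was at 51.3 ± 13.2 CPM in NLS t48 (SD, n = 3) and 0.647 ± 0.264 CPM in LacZ t48 (SD, n = 2), a log2 fold change of 6.31 (SE 0.34, edgeR adjusted p = 3.55e-08). Axin2 was at 19.2 ± 0.666 CPM in NLS t48 and 1.42 ± 0.595 CPM in LacZ t48 (log2 fold change 3.74, SE 0.35, edgeR adjusted p = 4.37e-06).

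Lef1 was again lower, at 2.61 ± 0.488 CPM in NLS t48 and 6.97 ± 0.422 CPM in LacZ t48 (log2 fold change -1.42, SE 0.18, edgeR adjusted p = 2.94e-05). Wnt5b was at 1.33 ± 0.382 CPM in NLS t48 and 0.135 ± 0.0455 CPM in LacZ t48 (edgeR adjusted p = 0.00118). Apcdd1 had the smallest gap, at 11.4 ± 2.47 CPM in NLS t48 and 8.08 ± 0.81 CPM in LacZ t48 (log2 fold change 0.50, SE 0.16, edgeR adjusted p = 0.0224). That call was lost without line 6, 7, 10 or 12, the NLS t48 library of line 7 or the LacZ t48 library of line 10 (edgeR adjusted p 0.0563 to 0.19, highest without line 10). Tcf7, at 115.0 ± 23.3 CPM in NLS t48 and 58.3 ± 0.402 CPM in LacZ t48 (edgeR adjusted p = 0.0146), lost its call without line 6, 10 or 12 or either LacZ t48 library (edgeR adjusted p 0.066 to 0.105). The median log2 fold change of the members was 2.11 at t0, and 3.93 at t48 with genes at 0 reads set to their bound, against 0.00 and 0.01 for all tested genes. The NLS and LacZ lines are different lines, so construct and line of origin cannot be told apart, and line 16 is counted among the NLS lines in spite of its low Adcy10.

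Between the NLS lines, with the time label as a block, 1 member was called in line 6 against 16. In line 7 against 16 and in line 7 against 6, 3 members were called. These are 10%, 30% and 30% of the members, beside 2.26%, 22.6% and 11.1% of all tested genes. Each line had 1 library at each time label, so the time labels stand in for replicates of a line. Without the time block neither Wnt5a nor Tcf7 was called in line 7 against line 16 (edgeR adjusted p = 0.573 and 0.0769). In line 6 against line 16 the call was Tcf7 alone, lower in line 6, beside 2.26% of all tested genes called, 0.882% higher and 1.38% lower. Its log2 fold change was -0.24 (SE 0.05, edgeR adjusted p = 0.00738), and the call was lost without the t0 library of line 16 (edgeR adjusted p = 0.113) or the t48 library of line 6 (0.0776). In line 7 against line 16, 1 member was higher and 2 lower, beside 22.6% of all genes called, 11.8% higher and 10.8% lower. Wnt5a was higher (log2 fold change 0.69, SE 0.10, edgeR adjusted p = 0.000161) and Tcf7 lower, with 83.1 ± 8.6 CPM in line 7 and 135.0 ± 17 CPM in line 16 (SD over 3 time labels, log2 fold change -0.69, SE 0.05, edgeR adjusted p = 4.37e-08). Dact1 was also lower (log2 fold change -0.41, SE 0.13, edgeR adjusted p = 0.0306), a call lost in 6 of 6 refits (edgeR adjusted p 0.0503 to 0.168, highest without the t48 library of line 16) and in DESeq2 (adjusted p = 0.175). Axin2 was not called (log2 fold change -0.42, SE 0.14, edgeR adjusted p = 0.054), but was lower without the t48 library of line 7 (0.000696).

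In line 7 against line 6, Wnt5a was higher (log2 fold change 0.52, SE 0.10, edgeR adjusted p = 0.00339) and Tcf7 lower (log2 fold change -0.45, SE 0.05, edgeR adjusted p = 1.24e-05), beside 11.1% of all genes called, 5.9% higher and 5.19% lower. Axin2 was lower too (log2 fold change -0.49, SE 0.14, edgeR adjusted p = 0.0469), a call lost without the t0 or t6 library of line 6 (edgeR adjusted p = 0.231 and 0.163) or of line 7 (0.225 and 0.142). It was also lost in DESeq2 (adjusted p = 0.0658), with no filter on low counts (0.0656) and with only the compared libraries in the fit (0.203). Wnt5a and Tcf7 thus lay in opposite directions over the lines. Adcy10 followed neither order, with 194.0 ± 10.7 CPM in line 7, 359.0 ± 17.1 CPM in line 6 and 1.03 ± 0.31 CPM in line 16. Between the LacZ lines 12 and 10 no member was called by edgeR, and 0 had an unadjusted p under 0.05, beside 0.123% of all tested genes called, 0.092% higher and 0.0307% lower. DESeq2 called 0 as well, with an adjusted p for Tcf7 only (0.889).

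**Figure D4:**
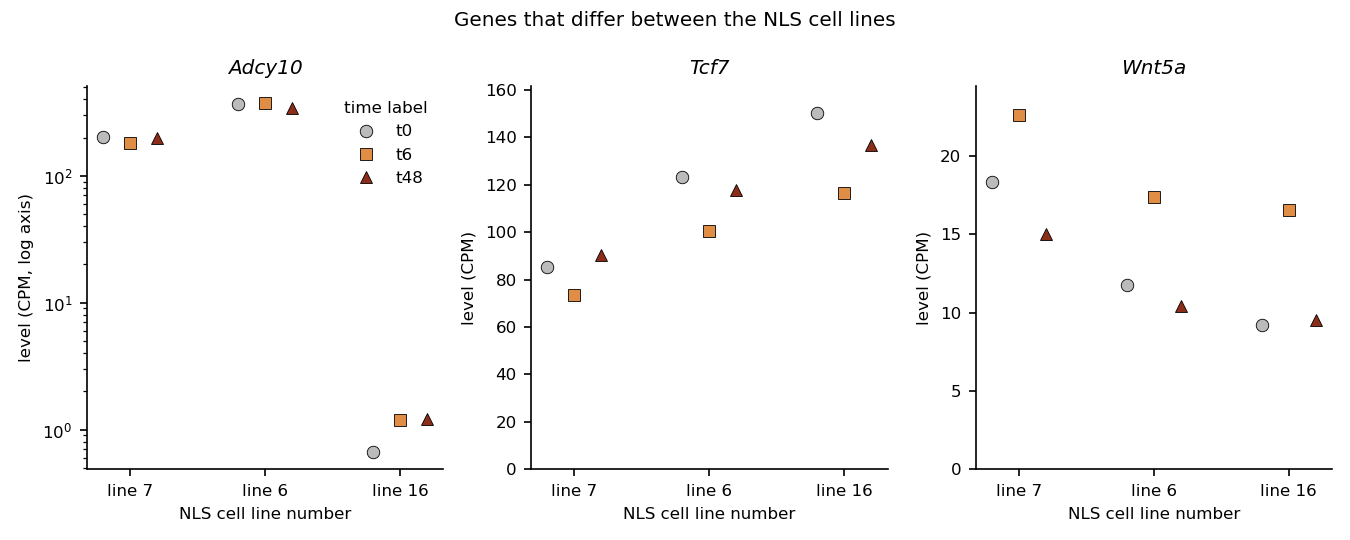
Level in CPM (y axis, log axis for Adcy10) of Adcy10, Tcf7 and Wnt5a in the NLS lines 7, 6 and 16 (x axis), with a symbol for each time label. Tcf7 is lowest and Wnt5a highest in line 7 at every time label, while Adcy10 is near 1 CPM in line 16 and above 180 CPM in lines 7 and 6.

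On a scale per transcript length (TPM), Tcf7 had the highest level of the 10 genes in every group. It was at 85.4 ± 23.1 TPM in NLS t0, 71.7 ± 15.6 TPM in NLS t6 and 83.9 ± 15.9 TPM in NLS t48 (SD, n = 3), and at 39.1 ± 1.1 TPM in LacZ t48 and 48.8 ± 2.61 TPM in LacZ t0 (SD, n = 2). At NLS t0 it was followed by Nkd2 at 13 ± 1.84 TPM, Axin2 at 9.20 ± 3.34 TPM and Apcdd1 at 7.66 ± 1.01 TPM, of which Nkd2 and Axin2 overlapped, as did Axin2 and Apcdd1. Dact1 stood 9th at NLS t0, at 0.803 ± 0.0873 TPM, and 3rd at NLS t48, at 19.5 ± 2.58 TPM. In the LacZ lines Lef1 stood next below Tcf7, at 4.36 ± 0.246 TPM in t48 and 6.89 ± 1.34 TPM in t0. Wnt5b was the lowest member in each NLS group, at 0.383 to 1.12 TPM on average.

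**Figure D5:**
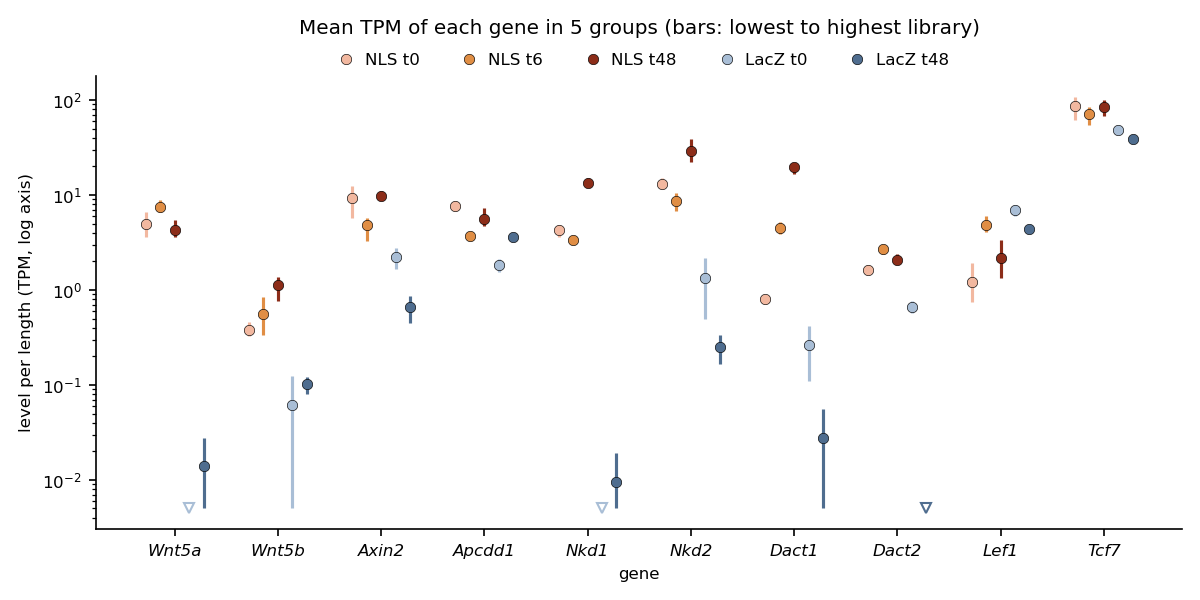
Mean level per length in TPM (y axis, log axis) of each gene (x axis) in the 5 groups; vertical bars run from the lowest to the highest library, and open triangles at the bottom mark groups with no reads. Tcf7 is highest in all groups, and Dact1 spans 0.803 TPM in NLS t0 to 19.5 TPM in NLS t48.

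Salmon's division of reads among transcripts showed which forms carried the members, within the limits of its model. For Wnt5a, the 7010-base transcript Wnt5a-201 took 61.4 ± 5.26% of the gene's reads in NLS t0, 61.7 ± 3.47% in NLS t6 and 70.6 ± 2.21% in NLS t48 (SD, n = 3), and Wnt5a-202 took 38.6 ± 5.26%, 38.1 ± 3.62% and 29.4 ± 2.21% of them at NLS t0, t6 and t48. For Dact1, Dact1-201 took 90.9 ± 5.39% in NLS t6 and 87.2 ± 2.58% in NLS t48. For Tcf7, Tcf7-201 took 81.7 ± 1.98% in NLS t0, 78.6 ± 0.499% in NLS t6 and 80.5 ± 4.75% in NLS t48. The share of Wnt5a-201 lay above that at t0 and t6 in every t48 library. That of Tcf7-201 at t6 lay below every t0 library and within the range of the t48 libraries. No share was tested.

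The other genes of the pathway were read from 7 lists with 100 genes, of which 72 were tested. At t6 against t0 in the NLS lines 15 were higher and 9 lower, at t48 against t0 24 higher and 5 lower, and at t48 against t6 21 higher and 10 lower. At t48 against t0 in the LacZ lines 8 were higher and 14 lower. These are 33.3%, 40.3%, 43.1% and 30.6% of the tested genes, beside the 20.8%, 26.1%, 28.2% and 18.5% over all genes. In NLS over LacZ lines 17 were higher and 25 lower at t0, and 32 higher and 15 lower at t48. These are 58.3% and 65.3% of the tested genes, beside 43.5% and 45.1% over all genes.

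Among secreted modulators, 4 of 6 tested genes were higher and 1 lower at t48 than at t0 in the NLS lines, 83.3% called beside 26.1% over all genes. Dkk3, a Dickkopf relative, had 157.0 ± 2.03 CPM in NLS t48 and 60.9 ± 3.28 CPM in NLS t0 (SD, n = 3, log2 fold change 1.36, SE 0.05, edgeR adjusted p = 2.43e-09). Dkk3 was also higher in the LacZ lines, with 139.0 ± 7.76 CPM in LacZ t48 and 105.0 ± 3.09 CPM in LacZ t0 (SD, n = 2, log2 fold change 0.41, SE 0.07, edgeR adjusted p = 0.000921), a call lost without line 12 (edgeR adjusted p = 0.0674). Rspo2, an R-spondin that amplifies Wnt signals, had 23.9 ± 1.66 CPM in NLS t48 and 9.14 ± 0.314 CPM in NLS t0 (edgeR adjusted p = 4.13e-06). Notum, an extracellular enzyme that inactivates Wnt proteins and is itself a Wnt target, was lower, with 18.4 ± 3.44 CPM in NLS t48 and 45.1 ± 7.74 CPM in NLS t0 (log2 fold change -1.29, SE 0.14, edgeR adjusted p = 3.37e-05). Notum was also lower in the LacZ lines, with 2.47 ± 0.119 CPM in LacZ t48 and 5.97 ± 1.31 CPM in LacZ t0 (SD, n = 2, edgeR adjusted p = 0.00462), a call lost without line 12 (edgeR adjusted p = 0.133).

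Of 13 receptors, 4 were higher and none lower at t48 than at t0 in the NLS lines, and 2 were higher and 3 lower in the LacZ lines. That is 30.8% called in the NLS lines, close to the 26.1% over all genes, and 38.5% in the LacZ lines, beside 18.5%. Fzd7, a Frizzled receptor, had 76.1 ± 0.34 CPM in NLS t48 and 47.9 ± 3.07 CPM in NLS t0 (edgeR adjusted p = 2.27e-05). Ror1, a receptor of Wnt5a, had 97 reads in NLS t48 and 2 in NLS t0, a ratio of 51.4 with a 95% counting interval of 13.9 to 431. Ptk7, a co-receptor of the beta-catenin-independent branch, was lower in the LacZ lines, with 0.13 ± 0.105 CPM in LacZ t48 and 2.07 ± 0.0425 CPM in LacZ t0 (edgeR adjusted p = 0.000422). Of 6 tested genes of Wnt secretion and receptor turnover, 1 was higher and none lower at t48 than at t0 in the NLS lines. That is 16.7% called, beside 26.1% over all genes. It was Lgr4, an R-spondin receptor, with 24.0 ± 1.27, 15.2 ± 1.39 and 54.8 ± 0.994 CPM at NLS t0, t6 and t48 (SD, n = 3). This was the same order of labels as Nkd1 and Nkd2. Lgr4 was called in all 3 NLS time comparisons (edgeR adjusted p = 0.000205 for t6 over t0, 3.53e-07 for t48 over t0 and 7.99e-09 for t48 over t6). Lgr6, of the same list, went the other way, with 30.2 ± 4.28, 95.7 ± 19.8 and 32.1 ± 9.43 CPM at NLS t0, t6 and t48. It was called for t6 over t0 and t48 over t6 (edgeR adjusted p = 0.000767 and 0.000587). Wls, which carries Wnt proteins to the surface, was lower at t6, with 125.0 ± 5.57 CPM in NLS t6 and 187.0 ± 3.77 CPM in NLS t0 (edgeR adjusted p = 9.24e-06).

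Of the 8 other tested Wnt ligands, 2 were higher and none lower at t48 than at t0 in the NLS lines, 25% called and so no more than the 26.1% over all genes. Wnt7b had 2.46 ± 0.204 CPM in NLS t48 and 0.666 ± 0.0874 CPM in NLS t0 (edgeR adjusted p = 4.98e-05). It was also higher in the LacZ lines, with 2.95 ± 0.7 CPM in LacZ t48 and 1.53 ± 0.0401 CPM in LacZ t0 (edgeR adjusted p = 0.0212), a fragile call with 2 lines. Wnt9a was lower at t6, with 38.5 ± 7.93 CPM in NLS t6 and 71.2 ± 6.92 CPM in NLS t0 (edgeR adjusted p = 0.00189). Among 14 cytoplasmic transducers, 4 were higher and 1 lower at t48 than at t0 in the NLS lines, 35.7% called beside 26.1% over all genes. Between the constructs, none was higher and 7 were lower in NLS t0 than in LacZ t0, and 2 were higher and 7 lower in NLS t48 than in LacZ t48. These are 50% and 64.3% called, beside 43.5% and 45.1% over all genes. Apc, a scaffold of the complex that degrades beta-catenin, had 92.3 ± 4.84 CPM in NLS t0 and 261.0 ± 8.31 CPM in LacZ t0 (log2 fold change -1.50, SE 0.06, edgeR adjusted p = 3.31e-10). Csnk1a1, a kinase of the same complex, had 249.0 ± 12.0 CPM in NLS t0 and 403.0 ± 23.3 CPM in LacZ t0 (edgeR adjusted p = 1.4e-06). Of 11 nuclear factors, 4 were higher and 1 lower at t48 than at t0 in the NLS lines, 45.5% called beside 26.1% over all genes. Pygo1, a co-factor of beta-catenin, was at 6.17 ± 0.243 CPM in NLS t48 and 2.92 ± 0.354 CPM in NLS t0 (edgeR adjusted p = 0.000233). In the LacZ lines it was higher at t48 too, with 1.62 ± 0.169 CPM in LacZ t48 and 0.873 ± 0.249 CPM in LacZ t0 (edgeR adjusted p = 0.0249), again a fragile call.

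Of 14 tested genes reported elsewhere as beta-catenin targets, 4 were higher and 2 lower at t6, and 5 were higher and 2 lower at t48, than at t0 in the NLS lines. These are 42.9% and 50% called, beside 20.8% and 26.1% over all genes. Ccn5 had 21.4 ± 7.07, 2.07 ± 0.326 and 18.8 ± 7.85 CPM at NLS t0, t6 and t48 (SD, n = 3), lower at t6 than at t0 (edgeR adjusted p = 0.000112) and higher at t48 than at t6 (edgeR adjusted p = 8.29e-05), as Axin2 was. Ccnd1, which encodes cyclin D1, went the other way, with 756.0 ± 64.8, 978.0 ± 62.1 and 624.0 ± 55.4 CPM at NLS t0, t6 and t48 (edgeR adjusted p = 0.00317 for t6 over t0, and 2.54e-05 for t48 over t6). Its call at t6 over t0 was lost without line 16 (edgeR adjusted p = 0.0518). In the LacZ lines Ccn5 and Axin2 moved in opposite directions at t48. Ccn5 had 16.6 ± 1.9 CPM in LacZ t48 and 3.0 ± 0.151 CPM in LacZ t0 (edgeR adjusted p = 0.00282), while Axin2 was lower. With 2 lines both calls were fragile and were lost in some refits.

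The genes whose levels ran most like each member were found by Pearson's r of log2(CPM + 0.5) over the 13 libraries, among genes with a mean of at least 1 CPM. These libraries share lines and time labels, and the NLS and LacZ lines differ widely, so r describes the pattern only. For Dact1 they were Slco3a1 (r = 0.991), Mboat2 (0.986) and Asphd2 (0.984), and for Nkd1 Sulf2 (0.989), Plxnc1 (0.989) and Ankrd44 (0.987). For Nkd2 they were Lrrc8e (0.987), Mn1 (0.982) and Lyn (0.98), and for Axin2 Nbl1 (0.979), Tspyl4 (0.978) and Tcf7l2 (0.977), the last a further gene of the TCF family. For Wnt5a they were Amigo2 (0.992), Magohb (0.99) and Dclk1 (0.989), for Dact2 Robo2 (0.988), Tmem267 (0.977) and Robo1 (0.972), and for Lef1 Pcdh1 (0.974), Pcdh7 (0.971) and Mrpl36 (0.968). Apcdd1 ran most like Cpne8 (0.96), Adora2b (0.959) and Agpat4 (0.952), and Tcf7 like Eif6 (0.95), Ccdc141 (0.95) and Ckb (0.947). Wnt5b was under the minimum level. The ranking depends on the pseudocount: with 0.1 in place of 0.5, 1 of the 3 genes was shared for each of Wnt5a, Nkd1 and Nkd2, and 2 or 3 for the other members. Tcf7l2 was then not among the 3 for Axin2. Within the 9 NLS libraries alone, Nkd1 and Nkd2 ran together at r = 0.95 and Dact2 and Lef1 at r = 0.94, while Wnt5a and Tcf7 had r = -0.91.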

How the data were processed

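Per the labels' protocols, the cells were lysed in Trizol and a stranded mRNA kit gave paired-end libraries. The authors deposited estimated counts and TPM for each transcript of 13 libraries, made with Salmon 1.2.0 and GRCm38 per the submitters' processing notes. Of 116546 transcripts, 115977 were matched to a gene of GENCODE, and the rest held 0.1207% to 0.1649% of the reads. Estimated counts as deposited were summed per gene and rounded, and TPM as deposited was summed per gene.

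Genes were filtered by edgeR's filterByExpr over the 5 groups. Comparisons of times and constructs used edgeR 4.0.16 (R 4.3.3) with TMM, robust quasi-likelihood fits of 5 group means on all 13 libraries, and Benjamini-Hochberg adjustment over 13044 genes with a threshold of 0.05. Comparisons of lines added line and time terms. With 11 comparisons, calls were not adjusted across them. Folds against 0 reads use a floor of 3 counts per library, and ratios with 1 to 3 reads have exact 95% intervals, both for counting error only. DESeq2 1.42.0 was an alternative, beside its size factors, no filter, only the libraries compared, and leaving out each library or line.

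Equal line numbers mark the same cell line per the labels, so they pair libraries. Deviations from group means correlated at 0.077 to 0.393 between NLS libraries of the same number and -0.38 to 0.068 between different numbers. In the LacZ lines they correlated at 0.0284 and -0.0284, so there the pairing rests on the labels. Replicates of a group differed by more than sampling noise in every pair (chi-square over its degrees of freedom at least 6.94). On data simulated for t48 against t0 of the NLS lines, over 12761 genes, the test recovered 93% of 100 genes changed 2-fold and called 12 of 12361 unchanged genes. The changed genes were drawn above a minimum mean level, which Wnt5b did not reach. The simulated libraries lacked the correlation seen between NLS libraries of the same number.

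All 10 members were named, and the other pathway genes come from up to 2 higher and 2 lower per list and comparison, those past the threshold with the smallest p. Genes of like pattern were the 3 with the highest r. The members, lists and tests were chosen with earlier results of these data known. RefSeq promoters were matched by symbol.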

Additional observations from a re-analysis of the deposited data

Results flagged for a closer look

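For 6 genes the change between the t48 and t0 libraries differed between the NLS and the LacZ lines by a test of the difference itself, and this is why they are listed. As log2 differences, NLS change minus LacZ change, the values were 1.75 for Axin2, 2.57 for Nkd2, 1.13 for Lef1 and -1.73 for Apcdd1. That of Nkd2 ran from 1.56, without line 12, to 3.44, without line 10. For Dact1 the value was 7.29 and for Dact2 7.76. The last 2 depend on the prior count of the fit, since the LacZ t48 libraries held 2 reads of Dact1 and none of Dact2, and are no measure of size.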

How the results depend on the processing

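Without the time label as a block, 0 members were called in each of line 6 against 16, line 7 against 16 and line 7 against 6. With only the libraries compared, 5 members were called in line 7 against 16. Leaving out 1 library or 1 line gave 3 to 7 called members for t6 against t0 and 3 to 5 for t48 against t0 in the NLS lines. The range was 5 to 8 for t48 against t6, 2 to 4 for the LacZ lines, 4 to 6 for the difference of responses, 7 to 10 and 8 to 10 for NLS against LacZ at t0 and t48, and 0 to 1 for line 6 against 16. It was 2 to 3 for line 7 against 16 and against 6. With the cell line number as a replicate block, 9, 6, 8, 7 and 6 members were called for t6 against t0, t48 against t0, t48 against t6, the LacZ lines and the difference of responses. Among the members this block changed no call other than those printed beside Wnt5a, Tcf7 and Dact1. No paired analysis was possible for NLS against LacZ at one time because these groups share no line number. Of single called values, 438 kept their call and 95 lost it when a library or line was left out, none with a change of sign; DESeq2 lost 4 and kept 53, no filter lost 8 and kept 49, only the libraries compared lost 5 and kept 51, and DESeq2 size factors kept all 57. The cause was not tested. Wnt5b, Nkd1 in LacZ lines and Dact1 at t0 rest on few reads, so depth limits their ratios, and refits with 1 library in an arm assume that it varies like the other groups.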
